A study of Mus musculus with 5 samples.

Results

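Microglia and other macrophages are specified by a small set of transcription factors, and 9 of their genes are described here in cells sorted from demyelinated white matter: Sall1, Sall3, Mef2a, Mef2c, Spi1, Irf8, Runx1, Maf and Cebpa. They are 9 of the 49671 genes in the expression table. The rule that chose them names gene symbols and no measured value, but it was set with earlier results of these data known. All 9 had enough reads to be tested. The cells came from wild-type male C57BL/6J mice aged 10 weeks, 10 days after an injection into the corpus callosum of lysolecithin (LPC, 2 µl at 1%), which destroys myelin around the needle. Live CD11b+ Ly6G- CD3- cells were split by their level of CD45 into CD45hi cells (2 libraries) and CD45lo cells (3 libraries). The study calls the CD45hi cells monocytes, the sample labels call them macrophages derived from monocytes, and the CD45lo cells are microglia in both. Both groups came from lesions, so no library shows these genes in unlesioned brain, and both were amplified from very little RNA because few monocytes could be recovered from a lesion. The labels do not tie a library to an animal, so the p-values here measure the spread between these libraries, which may be technical.

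PU.1, encoded by Spi1, is an ETS family factor that opens the enhancers of all macrophages and pairs with IRF8 on shared DNA sites. RUNX1 and C/EBP alpha act early in the making of myeloid cells, and MEF2A, MEF2C, MAF and the zinc finger proteins SALL1 and SALL3 bind within this landscape in the mature cell, where SALL1 sets microglia apart from other macrophages. Cells of the monocyte lineage are known to need PU.1, IRF8 and C/EBP alpha, and to lack SALL1.

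The libraries differed in depth and content. The counts per library were 3417150 and 6514611 in monocytes and 5890081 to 9021700 in microglia. At least 1 count was held by 9972 and 9942 genes in monocytes, against 10416 to 16013 in microglia. At least 10 counts were held by only 1392 and 4230 genes in monocytes, against 5994 to 11653 in microglia. The 10 genes with the most counts took 50.1% and 31.5% of the counts in monocytes and 14.1% to 40.6% in microglia. Mitochondrially encoded genes took 39.9% and 28.5% of the counts in monocytes and 11.1% to 39.0% in microglia. All 10 microglial marker genes fixed as a list had reads in every library, at a summed 581 and 5669 CPM (counts scaled by the library total) in monocytes and 6691 to 16781 CPM in microglia. Of 12 classical monocyte markers, 8 were at 0 in each monocyte library, Ccr2, Ly6c1, Ly6c2 and Chil3 among them. In microglia 5, 5 and 9 of the 12 were at 0. Ccr2 had 12, 52 and 0 reads in microglia, while Ly6c1, Ly6c2 and Chil3 were at 0 there too. The summed level of the list was 6076 and 3043 CPM in monocytes, against 191 to 1538 CPM in microglia. The reads of that list in monocytes lay in 4 other markers, beside 6 reads of S100a4 in library 2. Vcan had 8006 and 0 reads in monocytes, against 12, 2 and 0 in microglia (edgeR adjusted p = 0.0479), and Fn1 had 11241 and 1189 in monocytes, against 1865, 627 and 69 in microglia. Cd44 had 531 and 559 reads in monocytes, against 164, 79 and 1 in microglia, and was higher in both, while Lyz2 had 985 and 18070 in monocytes, against 8145, 7396 and 1056 in microglia. The classical monocyte list was thus at 0 for most of its genes and high for a few in the CD45hi libraries, and the group names below are those of the gates. Levels below are FPKM, fragments per kilobase of gene after scaling by the library total. In a bulk sample a lower level can come from fewer cells that express a gene or from less of its RNA in each cell, and the measurements cannot tell these apart.

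Of the 9 genes, 5 had a lower FPKM in both monocyte libraries than in all 3 microglia libraries: Sall1, Sall3, Spi1, Runx1 and Maf. Over all genes tested the same was true of 48.0%, so a count of 5 of 9 is near the background. None of the 9 was higher in both monocyte libraries, against 0.673% of all genes tested. The 9 genes summed to 139 and 158 FPKM in the monocyte libraries and to 641, 317 and 552 FPKM in the microglia libraries. Their median was 0.95 and 7.37 FPKM in monocytes, against 53.5, 32.8 and 54.3 FPKM in microglia. A drop of this kind was not particular to the 9. In a fit scaled by library totals, their median log2 fold change of monocytes over microglia was −3.40, against −4.74 over all genes tested.

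**Figure D1:**
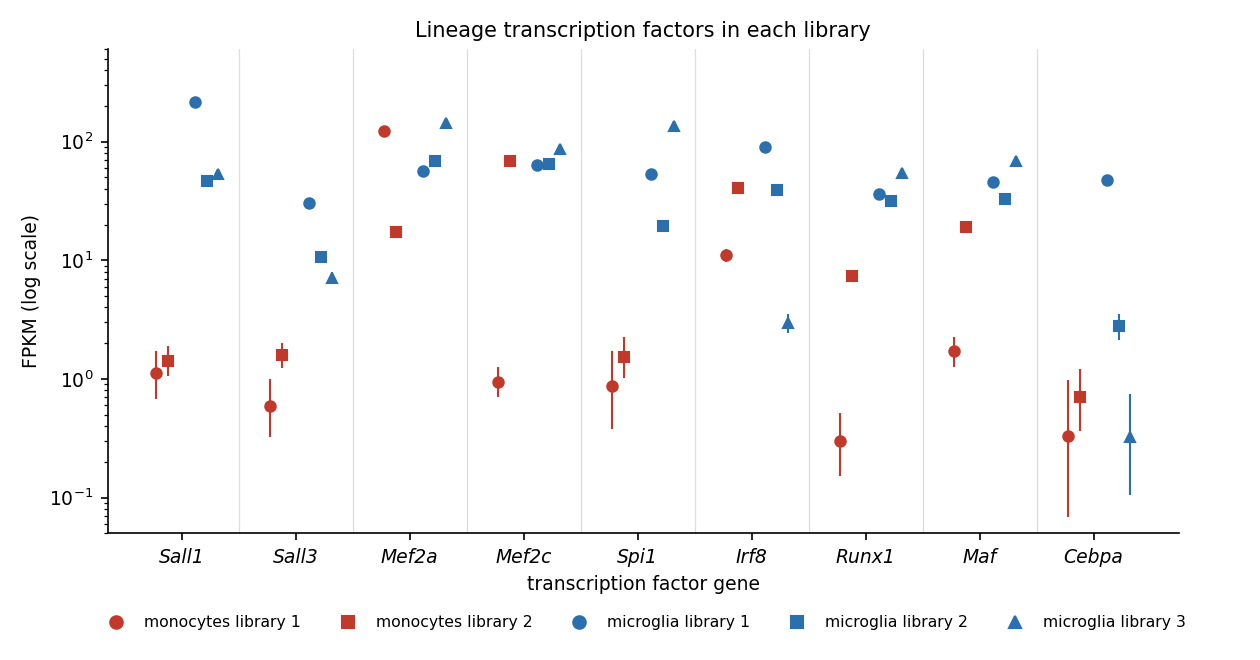
FPKM of each transcription factor gene (y axis, log scale) in the 2 monocyte libraries (red, left of each pair) and the 3 microglia libraries (blue, right). Points are single libraries and bars are 95% exact binomial intervals of the counts, which cover counting error only. Sall1, Sall3, Spi1, Runx1 and Maf do not overlap between the groups, whereas Mef2a, Mef2c, Irf8 and Cebpa do.

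SALL1 is a zinc finger repressor that keeps microglia in their resident state, and its gene had the widest gap between the groups by mean FPKM among the 9. Sall1 stood at 1.11 and 1.43 FPKM (20 and 49 reads) in the monocyte libraries and at 217, 46.5 and 53.7 FPKM (7595, 2208 and 1665 reads) in the microglia libraries. Both monocyte libraries lay far under all 3 microglia libraries, and microglia library 1 was 4.68 times as high as the lowest microglia library. The group means were 1.27 ± 0.224 FPKM (SD, n = 2) in monocytes and 106 ± 96.7 FPKM (SD, n = 3) in microglia, a ratio of 0.0120. Among the genes tested, Sall1 ranked 932 and 3179 by FPKM in monocytes and 126, 488 and 794 in microglia. In the fit across all genes, described below, the log2 fold change of monocytes over microglia (log2FC below) was −2.31, with a standard error (SE) of 2.11 and an edgeR adjusted p = 0.594. Sall1 lies on chromosome 8 of GRCm38 from 89027235 to 89044162, on the minus strand, with 4 merged exons.

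SALL3 is the paralogue of SALL1 that microglia also express. Sall3, on chromosome 18, stood at 0.595 and 1.58 FPKM (14 and 71 reads) in monocytes and at 30.2, 10.6 and 7.10 FPKM in microglia. Its order across microglia libraries 1 to 3 had the highest level in library 1, as for Sall1, and the groups did not overlap. Its mean was 1.09 ± 0.698 FPKM (SD, n = 2) in monocytes and 16.0 ± 12.5 FPKM (SD, n = 3) in microglia, with a log2FC of −0.25 (SE 1.83, edgeR adjusted p = 0.956). The sign of that fold change turned to 0.17 with DESeq2 or RLE scaling.

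The other genes of the SALL family were scarce. Sall2 had 1 and 3 reads in monocytes, against 66, 22 and 208 in microglia. Sall4, a factor of embryonic stem cells, was read 2 times in monocyte library 1 and never in the other libraries, where a count of 0 allows up to 3 reads. Sall1 was therefore the SALL gene with the most reads in each microglia library, and in monocyte library 2 Sall3 had more reads than Sall1.

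PU.1 is the factor on which all macrophages depend, and its gene showed few reads in either monocyte library. Spi1 stood at 0.869 and 1.54 FPKM (8 and 27 reads) in monocytes and at 53.5, 19.3 and 135 FPKM (957, 469 and 2142 reads) in microglia. Every microglia library was above both monocyte libraries, and within microglia the highest was 7.0 times the lowest. The means were 1.2 ± 0.473 FPKM (SD, n = 2) in monocytes and 69.3 ± 59.4 FPKM (SD, n = 3) in microglia. The log2FC was −2.52 (SE 2.08, edgeR adjusted p = 0.565). Spi1 lies on chromosome 2 from 91082390 to 91115756, on the plus strand, with 7 merged exons.

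The low level of Spi1 stood beside reads of genes that PU.1 is known to act on. Itgam, which encodes the CD11b chain used in the sort, had 699 and 62696 reads in monocytes, against 32650, 63066 and 25955 in microglia. Csf1r, the receptor for the macrophage growth factor CSF1, had 3680 and 13953 reads in monocytes, against 59184, 22084 and 55154 in microglia. Tyrobp, which encodes an adaptor of activating receptors, had 1814 and 4078 reads in monocytes, against 6598, 3195 and 713 in microglia. All 3 genes were thus read in each monocyte library, at counts far above the 8 and 27 reads of Spi1.

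IRF8 is the partner of PU.1 that monocyte development needs, and its gene overlapped between the groups. Irf8 stood at 11 and 40.9 FPKM (265 and 1879 reads) in monocytes and at 90.5, 39.1 and 2.94 FPKM (4235, 2486 and 122 reads) in microglia. Both monocyte libraries lay above microglia library 3 and under microglia library 1, and the spread within microglia was 30.8 times from lowest to highest. The means were 25.9 ± 21.1 FPKM (SD, n = 2) in monocytes and 44.2 ± 44.0 FPKM (SD, n = 3) in microglia. The log2FC was 2.81 (SE 2.03, edgeR adjusted p = 0.535), with the other sign, −0.77, when library totals set the scale. Irf8 lies on chromosome 8 from 120736358 to 120756694, on the plus strand, with 11 merged exons.

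The stretch before the start of Irf8 is shown because it holds 2 copies of a motif for STAT factors, which carry interferon signals (TTCNNNGAA, called GAS). The capitals mark the copies, which begin 171 and 153 bases before the start. Of all 32851 RefSeq promoters of the same length in GRCm38.p6, 8.30% hold the motif on either strand.
Irf8, chr8:120736168-120736357, plus strand: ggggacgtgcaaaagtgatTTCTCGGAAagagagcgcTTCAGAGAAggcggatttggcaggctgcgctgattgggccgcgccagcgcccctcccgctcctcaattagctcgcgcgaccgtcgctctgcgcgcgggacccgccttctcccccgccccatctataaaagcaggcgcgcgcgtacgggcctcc

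Set against Spi1 in the same library, which removes library scaling, Irf8 was high relative to Spi1 in monocytes. Spi1, the divisor, had only 8 and 27 reads in the monocyte libraries, so their ratios are imprecise. The mean FPKM of Irf8 itself was lower in monocytes than in microglia (25.9 against 44.2). The ratio of Irf8 to Spi1 FPKM was 12.7 and 26.6 in monocytes and 1.69, 2.02 and 0.0218 in microglia. Both monocyte ratios lay above all 3 microglia ratios. The difference of the mean log2 ratios, with 0.1 FPKM added to each gene, was 5.32 (exact permutation test, two-sided, p = 0.2, adjusted p = 0.8 over 4 ratios). The smallest p that 10 splits of 3 and 2 libraries allow is 0.1, so this design cannot reach 0.05. The difference ranged over 3.20 to 6.44 when each library was left out in turn, and it was 3.20 without microglia library 3.

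The MEF2 factors, which bind AT-rich sites and are part of the enhancers of microglia, gave opposite pictures in the 2 monocyte libraries. Mef2a stood at 122 and 17.3 FPKM (6104 and 1654 reads) in monocytes and at 56.5, 68.7 and 144 FPKM (5500, 9099 and 12434 reads) in microglia. Mef2c stood at 0.95 and 68.0 FPKM (51 and 6966 reads) in monocytes and at 63.9, 65.3 and 86.4 FPKM (6659, 9251 and 7996 reads) in microglia. Monocyte library 1 thus held nearly all of its MEF2 reads in Mef2a, and monocyte library 2 held most of them in Mef2c, at a level within the range of microglia.

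Across microglia Mef2c was the steadiest of the 9 genes, with 1.35 times between its highest and lowest FPKM, whereas the monocyte libraries differed 71.6 times. The means of Mef2c were 34.5 ± 47.4 FPKM (SD, n = 2) in monocytes and 71.8 ± 12.6 FPKM (SD, n = 3) in microglia. The means of Mef2a were 69.5 ± 73.8 FPKM (SD, n = 2) in monocytes and 89.7 ± 47.3 FPKM (SD, n = 3) in microglia. The log2FC was 4.05 for Mef2a (SE 2.46, edgeR adjusted p = 0.503) and 1.00 for Mef2c (SE 2.06, edgeR adjusted p = 0.821). Both signs rest on 1 library or the scaling: Mef2a was −0.87 without monocyte library 1 and −0.37 with library totals, and Mef2c was −2.56 without monocyte library 2 and −1.06 with library totals.

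The ratio of Mef2c to Mef2a FPKM within a library was 0.00781 and 3.93 in monocytes and 1.13, 0.95 and 0.601 in microglia. The microglia libraries lay close together, with the monocyte libraries on either side. The difference of the mean log2 ratios was −2.23 (exact permutation test, two-sided, p = 0.7, adjusted p = 0.8), and it was 2.18 without monocyte library 1. The related Mef2d had 14 and 605 reads in monocytes, against 4244, 1360 and 461 in microglia, and Mef2b was listed at 0 in every library.

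The regions at the starts of Mef2a and Mef2c are shown because each holds a core motif for PU.1 (GAGGAA, in 28.3% of promoters on either strand), and that of Mef2a also one for the MEF2 factors themselves (TAAAAATA, in 2.72% of promoters). Capitals mark these motifs and, in Mef2c, a GAS motif 157 bases before the start. In Mef2a the PU.1 motifs begin 114 and 103 bases before the start and the MEF2 motif spans the start. In Mef2c the PU.1 motif begins 122 bases before the start. A match describes the letters and does not show that a factor was bound there.
Mef2a, chr7:67372852-67373008, minus strand: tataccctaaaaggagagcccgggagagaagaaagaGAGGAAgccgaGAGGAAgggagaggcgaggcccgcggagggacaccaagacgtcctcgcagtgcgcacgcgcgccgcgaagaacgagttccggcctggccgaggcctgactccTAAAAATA
Mef2c, chr13:83503864-83504033, plus strand: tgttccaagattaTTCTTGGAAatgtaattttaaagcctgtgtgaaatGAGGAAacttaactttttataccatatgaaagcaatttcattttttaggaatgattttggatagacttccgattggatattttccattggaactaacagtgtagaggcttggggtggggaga

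Mef2a lies on chromosome 7 from 67231163 to 67372858 on the minus strand, and Mef2c on chromosome 13 from 83504034 to 83667080 on the plus strand. Exons of Mef2a share 302 bases with Lysmd4 on the other strand. Lysmd4 had 0 reads in both monocyte libraries and 95, 88 and 38 in microglia, few beside the reads of Mef2a.

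RUNX1 starts the blood programme in the embryo and stays on in microglia and monocytes. Runx1 stood at 0.297 and 7.37 FPKM (12 and 568 reads) in monocytes and at 35.9, 31.7 and 54.3 FPKM (2813, 3387 and 3781 reads) in microglia. The groups did not overlap, but the monocyte libraries differed 24.8 times between themselves, against 1.71 times within microglia. The means were 3.83 ± 5.00 FPKM (SD, n = 2) in monocytes and 40.6 ± 12 FPKM (SD, n = 3) in microglia, with a log2FC of −1.20 (SE 2.02, edgeR adjusted p = 0.777). Runx1 lies on chromosome 16 from 92601466 to 92826149 on the minus strand, and its exons share 106 bases with the antisense gene Gm26626, which had 0 and 3 reads in monocytes, against 191, 356 and 15 in microglia. The strand used in counting is not given in the sources used here.

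Just after the distal start of Runx1 lie 2 copies of the RUNX core motif (TGTGGT, here read on the other strand as ACCACA, in capitals), beginning at bases 29 and 37 of the transcript. The motif is in 16.8% of all promoters on either strand, and the site is shown because RUNX1 is itself a factor that binds it.
Runx1, chr16:92826025-92826052, minus strand: taaacaACCACAgaACCACAagttgggt

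A second start of Mef2c and one of Runx1 each hold a PU.1 motif, and the promoters of Sall1 and Cebpa hold none of the motifs above, nor the C/EBP motif TTGCGCAA, which is in 0.183% of all promoters.

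The other RUNX genes, Runx2 and Runx3, were unlike Runx1. Runx2, known as the factor of bone-forming cells, had 2 and 2052 reads in monocytes, against 196, 156 and 3 in microglia (log2FC 5.74, SE 2.13, unadjusted p = 0.00705, edgeR adjusted p = 0.208). Monocyte library 2 alone carried that difference, and without it the log2FC was −0.57. Runx3 had 8 and 0 reads in monocytes, against 2, 0 and 0 in microglia. Cbfb, the partner that RUNX proteins need to bind DNA, had 3 and 35 reads in monocytes, against 353, 821 and 132 in microglia, so its groups did not overlap, as for Runx1.

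MAF, a basic leucine zipper factor of resident macrophages, was also lower in both monocyte libraries. Maf stood at 1.70 and 19.0 FPKM (48 and 1019 reads) in monocytes and at 46.1, 32.8 and 68.7 FPKM (2519, 2438 and 3335 reads) in microglia. Monocyte library 2 lay under the lowest microglia library, and monocyte library 1 was much farther below it. The means were 10.3 ± 12.2 FPKM (SD, n = 2) in monocytes and 49.2 ± 18.2 FPKM (SD, n = 3) in microglia. The log2FC was 0.21 (SE 1.94, edgeR adjusted p = 0.963), above 0 although FPKM was lower in monocytes, and −2.25 with library totals. Maf lies on chromosome 8 from 115682942 to 115707794, and the antisense Gm15655, which shares 440 bases of its exons, had no read in any library.

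The small MAF proteins, relatives of MAF that lack a part for activating transcription, were scarce in monocytes: Mafg had 3 and 6 reads there and 1108, 285 and 195 in microglia. Mafk had 2 and 0 reads in monocytes, against 77, 114 and 0 in microglia, and Maff had 1 and 0 in monocytes, against 27, 11 and 1 in microglia.

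C/EBP alpha drives the step from progenitor to myeloid cell, and its gene varied most within microglia among the 9. Cebpa stood at 0.333 and 0.699 FPKM (3 and 12 reads) in monocytes and at 47.3, 2.78 and 0.322 FPKM (827, 66 and 5 reads) in microglia. Microglia library 3 lay as low as the monocyte libraries, and microglia library 1 was 147 times as high as library 3. The 95% exact binomial interval was 0.0687 to 0.973 FPKM in monocyte library 1 and 0.361 to 1.22 FPKM in monocyte library 2, against 0.105 to 0.752 FPKM in microglia library 3, so these 3 could not be told apart at this depth. The means were 0.516 ± 0.259 FPKM (SD, n = 2) in monocytes and 16.8 ± 26.4 FPKM (SD, n = 3) in microglia, with a log2FC of −1.06 (SE 2.04, edgeR adjusted p = 0.807) that was 0.85 without microglia library 1. Cebpa is a gene of 1 exon on chromosome 7 from 35119293 to 35121928.

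Among the other C/EBP genes, Cebpg stood apart as the 1 relative of the 9 genes that was higher in both monocyte libraries. Of all genes tested, 0.673% were higher in both. C/EBP gamma lacks a part for activating transcription and acts by pairing with other leucine zipper factors. Cebpg stood at 952 and 117 FPKM (18284 and 4282 reads) in monocytes and at 32.9, 25.7 and 57.5 FPKM (1227, 1305 and 1904 reads) in microglia. Every monocyte value exceeded every microglia value, and the log2FC was 8.28 (SE 3.10, unadjusted p = 0.00760, edgeR adjusted p = 0.211). The same gene had an adjusted p of 0.0331 with limma-voom and 4.18e-05 with DESeq2. Without monocyte library 1 its log2FC was 3.2 (edgeR adjusted p = 0.366).

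Cebpz, which carries the C/EBP name but is no leucine zipper factor, had 1188 and 122 reads in monocytes, against 254, 645 and 522 in microglia (log2FC 6.04, unadjusted p = 0.0121, edgeR adjusted p = 0.241). It was −0.26 without monocyte library 1. Cebpb, the factor of inflammatory activation in macrophages, was barely read, at 0 and 9 reads in monocytes, against 10, 61 and 2 in microglia, and Cebpd had 0 and 1 in monocytes, against 15, 3 and 11 in microglia. Cebpe, a factor of granulocytes, was at 0 in every library.

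**Figure D2:**
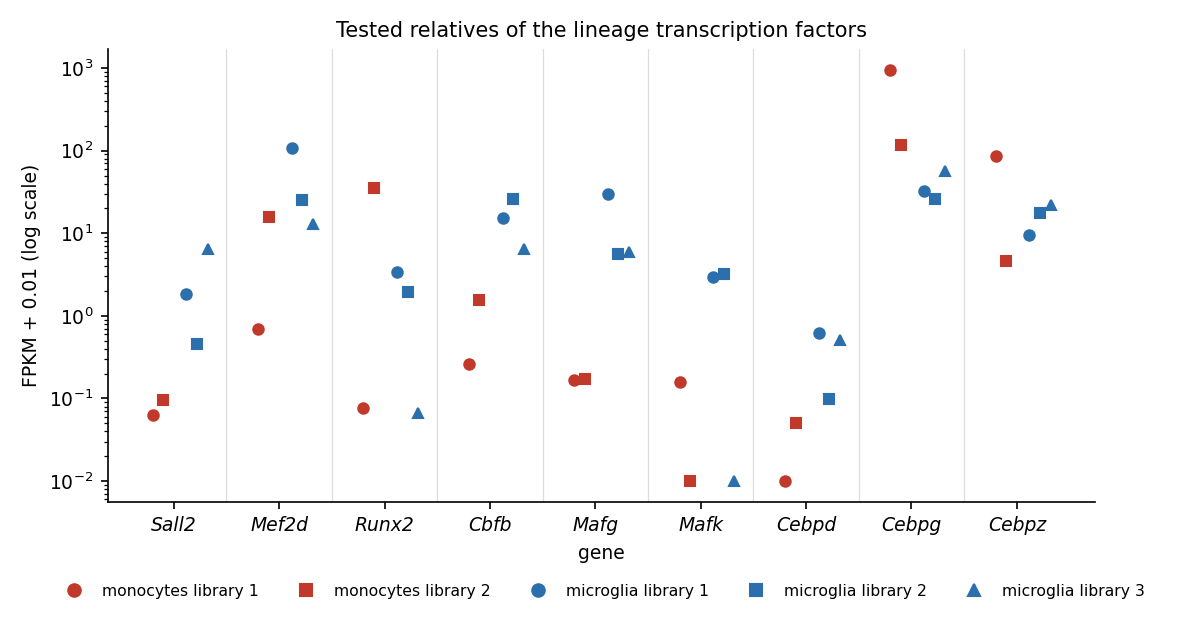
FPKM plus 0.01 (y axis, log scale) of the 9 tested relatives of the 9 factors, in the 2 monocyte libraries (red, left of each pair) and the 3 microglia libraries (blue, right); points are single libraries. Cebpg is above microglia in both monocyte libraries, and Sall2, Cbfb, Mafg and Cebpd are below microglia in both. Of all genes tested, 0.673% were above in both and 48.0% below in both.

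The share of each gene in the summed FPKM of the 9 shows how the makeup differed. Mef2a took 87.8% of the sum in monocyte library 1, and Mef2c took 43.1% and Irf8 25.9% in monocyte library 2. In microglia the leading gene was Sall1 in library 1 (33.9%) and Mef2a in libraries 2 and 3 (21.7% and 26.0%). Sall1 took 0.802% and 0.905% in monocytes, against 33.9%, 14.7% and 9.72% in microglia. Spi1 took 0.627% and 0.974% in monocytes, against 8.35%, 6.09% and 24.4% in microglia. The shares of Sall1 and Spi1 were thus alike in both monocyte libraries and lower than in every microglia library, while those of Mef2a and Mef2c differed between the monocyte libraries by more than microglia differed from each other.

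**Figure D3:**
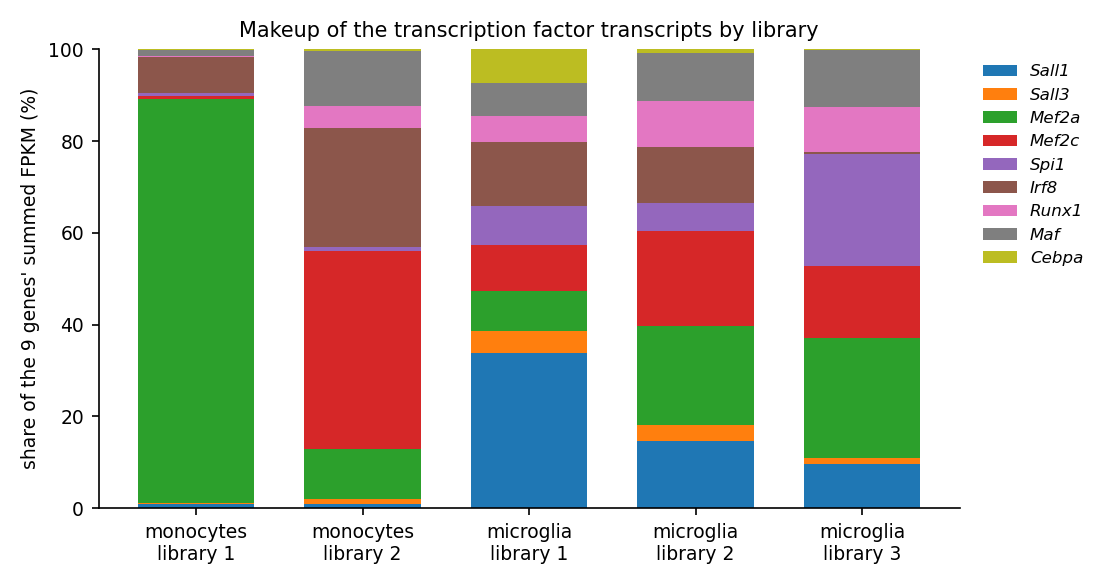
Share of each gene in the summed FPKM of the 9 transcription factor genes (y axis, percent) in the 2 monocyte libraries (left) and the 3 microglia libraries (right), 1 bar per library. Mef2a fills 87.8% of the bar of monocyte library 1, whereas no gene takes over 33.9% of a microglia bar.

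Within monocyte library 1 the order by FPKM was led by Mef2a, Irf8 and Maf, and within monocyte library 2 by Mef2c, Irf8 and Maf. In microglia the first 3 places went to Sall1, Irf8 and Mef2c in library 1, to Mef2a, Mef2c and Sall1 in library 2, and to Mef2a, Spi1 and Mef2c in library 3. Irf8 was second in both monocyte libraries and in microglia library 1, and next to last in microglia library 3. Over 10 FPKM were 2 and 4 of the 9 genes in monocytes, against 9, 8 and 6 in microglia.

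Ratios to Spi1 set SALL1 and C/EBP alpha against PU.1 within a library. Sall1 to Spi1 FPKM was 1.28 and 0.929 in monocytes and 4.06, 2.41 and 0.398 in microglia. Sall1 and Spi1 were thus both scarce in monocytes, in a proportion inside the range of microglia, and the difference of the mean log2 ratios was −0.54 (exact permutation test, two-sided, p = 0.8, adjusted p = 0.8), or 0.14 without microglia library 1. Cebpa to Spi1 FPKM was 0.383 and 0.454 in monocytes and 0.884, 0.144 and 0.00239 in microglia, a difference of 2.65 (exact permutation test, two-sided, p = 0.6, adjusted p = 0.8) that was 0.37 without microglia library 3.

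**Figure D4:**
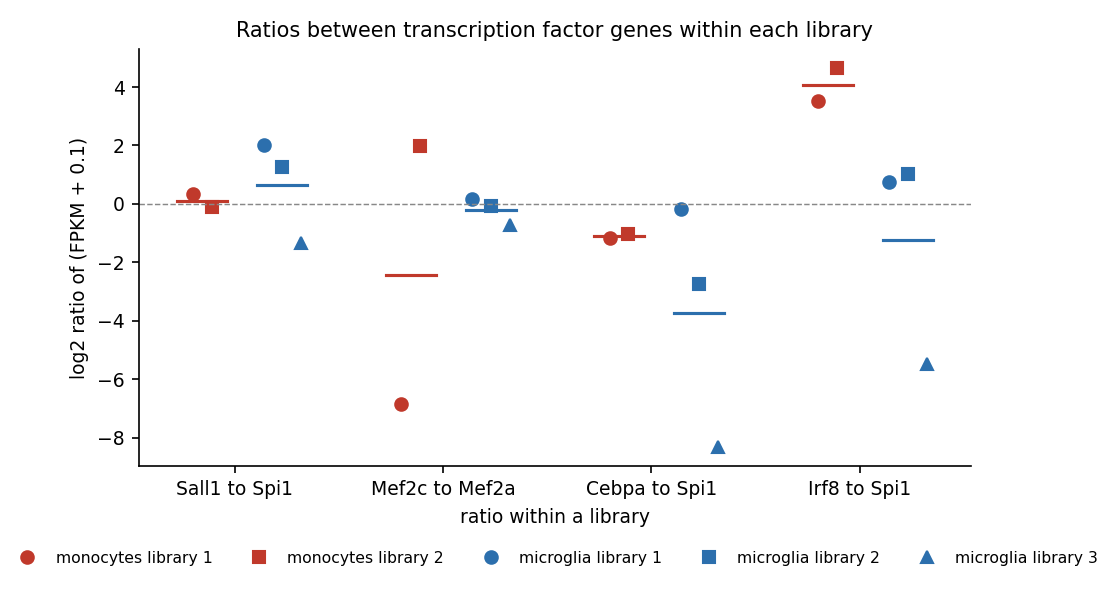
Log2 ratio of FPKM plus 0.1 between pairs of transcription factor genes within a library (y axis), for the 2 monocyte libraries (red, left of each pair) and the 3 microglia libraries (blue, right), with horizontal lines at the group means. Irf8 to Spi1 is higher in both monocyte libraries than in all 3 microglia libraries, and Mef2c to Mef2a has the monocyte libraries at linear ratios of 0.00781 and 3.93, on either side of microglia.

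In the fit of counts across 10105 genes, a quasi-likelihood test of monocytes over microglia in edgeR with TMM scaling, 0 of these 9 had an adjusted p below 0.05 in either direction. Over all genes tested 0.0594% passed, all higher in monocytes. At unadjusted p below 0.05 there were also 0 of the 9 from edgeR, against 11.9% of all genes tested, and 0 from limma-voom, against 6.07%. DESeq2 had 2 of the 9 there, Mef2a (log2FC 3.89, adjusted p = 0.0682) and Irf8 (3.41, adjusted p = 0.0711), which is near its 20.6% of all genes tested. The median log2FC was −0.25 over the 9 genes and −1.11 over all genes tested, and 5 of the 9 were below 0, against 63.7% of all genes. The standard errors of the 9 genes, 1.83 to 2.46 on the log2 scale, exceeded the size of the fold change for 5 of them.

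The 9 fold changes depended on the scaling, and all were lower with library totals than with TMM. With RLE factors Mef2a was lower than with TMM, at 3.89, and the others were higher. TMM, which assumes that most genes do not differ, gave factors of 0.0911 and 0.617 for monocytes and 3.75, 2.75 and 1.72 for microglia. With library totals, which is the scale of FPKM, all 9 genes were below 0, against 85.5% of all genes tested, their median was −3.40, and the median of all genes tested was −4.74. With totals, Sall1 was at −6.38 (edgeR adjusted p = 0.126) and Spi1 at −5.83 (edgeR adjusted p = 0.126). With TMM factors taken from genes counted at least 10 times in each library, 2 of the 9 genes were above 0, Mef2a and Irf8. Sall1, Spi1 and Runx1 were below 0 in all 13 fits (the main one and 12 with another tool, scaling, filter or a library left out), but so was the median of all genes tested. Sall1 was below that median in 12 of the 13 fits, Spi1 in 11 and Runx1 in 7. Sall1 remained lower in both monocyte libraries than in all 3 microglia libraries on the TMM scale too, at 64.2 and 12.2 CPM in monocytes and 305, 89.0 and 164 CPM in microglia. On that scale it was the 1 of the 9 genes that was lower in both, against 21.3% of all genes tested, and Irf8 the 1 that was higher in both, against 5.00%. Scaled CPM of Irf8 was 851 and 467 in monocytes and 170, 100 and 12 in microglia.

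**Figure D5:**
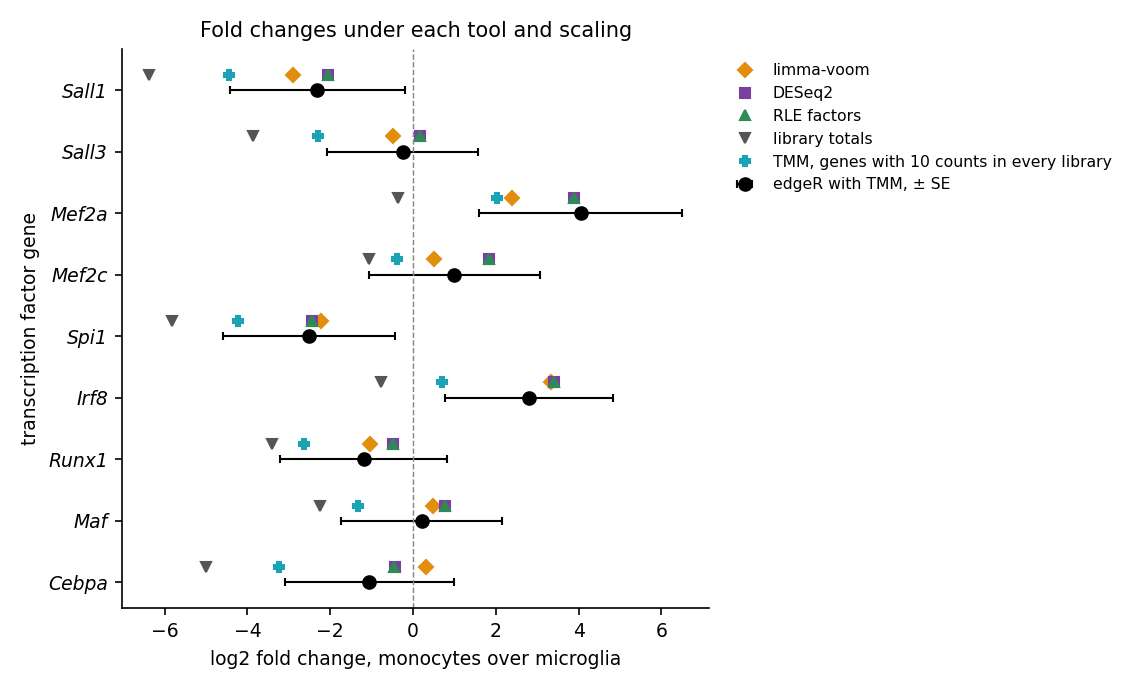
Log2 fold change of monocytes over microglia (x axis) for each of the 9 genes, from edgeR with TMM (black, with standard error) and, just above it, from other tools and scalings (colours). Sall1, Spi1 and Runx1 lie below 0 in every case drawn, Mef2a and Irf8 lie above 0 except with library totals, and Sall3, Mef2c, Maf and Cebpa change sign.

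The genes whose FPKM pattern over the 5 libraries lay nearest to that of Sall1 and Spi1 were found among 8651 genes by the root mean square difference of log2(FPKM + 1), centred on each gene's mean. For Sall1 they were Fmnl3 (0.324), which encodes an actin-binding formin, Tnfrsf1a (0.362), a receptor for TNF, and Tapbp (0.386), which helps to load antigen on MHC class I. Fmnl3 stood at 0.466 and 0.734 FPKM in monocytes and at 113, 33.6 and 56.9 FPKM in microglia. For Spi1 they were Pld1 (0.150), a phospholipase gene, Epc1 (0.234), part of a histone acetyltransferase complex, and Gxylt1 (0.240), a glycosyltransferase gene. Pld1 stood at 0.203 and 0.462 FPKM in monocytes and at 26.7, 12.7 and 73.7 FPKM in microglia, with its highest level in library 3, as for Spi1. Of the other 8 factors, Spi1 was the nearest to Sall1, at place 354, and Runx1 the nearest to Spi1, at place 793, while Irf8 was the farthest from both. These are descriptions over 5 libraries that share their depth and scaling.

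The wider families were counted from 5 lists of 91 genes in all. Of the 15 SALL, MEF2, RUNX, MAF and C/EBP relatives counted 9 were tested, of which 4 were lower and 1 was higher in both monocyte libraries, and 0 passed an adjusted p under 0.05 from edgeR (3 at unadjusted p below 0.05, 1 with limma-voom, 3 with DESeq2). Their median log2FC was −0.07, against −1.11 over all genes tested. Here and for the lists that follow, counts with limma-voom and DESeq2 are at adjusted p below 0.05, which 0.317% and 10.8% of all genes tested passed, and 11.9% of all genes were at unadjusted p below 0.05 from edgeR.

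Of the 15 other ETS family genes, relatives of PU.1, 12 were tested, 5 were lower in both monocyte libraries, 0 were higher in both, and 0 passed from edgeR (1 at unadjusted p below 0.05, 0 with limma-voom, 2 with DESeq2), with a median of 0.58. The gene at unadjusted p below 0.05 was Elk3, a factor that works with serum response factor, at 453 and 3498 reads in monocytes, against 1832, 1261 and 21 in microglia (log2FC 4.78, edgeR adjusted p = 0.348). Next by p were Elf2, Ets1, Etv3 and Etv6. Etv6, a repressor of blood development, had 3 and 1563 reads in monocytes, against 922, 436 and 510 in microglia. Ets1, known from lymphocytes, had 0 and 7 reads in monocytes, against 653, 135 and 92 in microglia. Elf2 was at 9.12 and 13.5 FPKM in monocytes, against 13.8, 15.5 and 13.7 FPKM in microglia, and Etv3 had 0 and 4 reads in monocytes, against 617, 157 and 3 in microglia. Fli1 and Elf4 had 2133 and 5649 reads in monocyte library 2, but 15 and 20 in monocyte library 1. Other ETS genes were scarce in monocyte library 2 too. Ets2, Elk1, Elk4 and Gabpa had 0, 1, 10 and 9 reads there, fewer than the 27 of Spi1, as did Ets1 and Etv3.

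Of 7 other interferon regulatory factors 6 were tested, 2 were lower in both monocyte libraries, 0 were higher in both, and 0 passed from edgeR (1 at unadjusted p below 0.05, 0 with limma-voom, 0 with DESeq2), with a median of −0.94. Irf9, part of the complex that answers type I interferon, had 0 and 4331 reads in monocytes, against 383, 316 and 656 in microglia (log2FC 4.13, edgeR adjusted p = 0.415), and all its monocyte reads came from library 2. Irf2 and Irf3 were the 2 that were lower in both. Irf3 had 0 and 7 in monocytes, against 234, 81 and 40 in microglia. Irf2, a repressor of interferon genes, had 1 and 25 reads in monocytes, against 1532, 1034 and 143 in microglia. Irf1 had 0 and 3 reads in monocytes, against 149, 263 and 2 in microglia. Irf5, a driver of inflammatory cytokines, had 3 and 1521 reads in monocytes, against 1697, 103 and 2696 in microglia. Irf7 stood at 0 and 2.20 FPKM in monocytes, against 12.7, 3.79 and 0.0450 FPKM in microglia, and Irf4 had 2 and 0 in monocytes, against 2, 9 and 947 in microglia. Irf8, with 265 reads, was thus the 1 of these interferon regulatory factors with over 3 reads in monocyte library 1.

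Of 42 other factors of microglia and tissue macrophages 32 were tested, 15 were lower in both monocyte libraries, 0 were higher in both, and 0 passed from edgeR (4 at unadjusted p below 0.05, 0 with limma-voom, 6 with DESeq2), with a median of 0.18. The 15 of 32 that were lower in both are near the 48.0% of all genes tested. The 4 of 32 at unadjusted p below 0.05 are near the 11.9% of all genes. Nr1h3, the oxysterol receptor LXR alpha that controls cholesterol efflux, had 2 and 917 reads in monocytes, against 62, 2 and 1 in microglia (log2FC 7.02, edgeR adjusted p = 0.109). Id2, an inhibitor of helix-loop-helix factors, had 1 and 602 reads in monocytes, against 18, 12 and 14 in microglia (log2FC 6.49, edgeR adjusted p = 0.122). Tal1, a helix-loop-helix factor of blood progenitors, stood at 0.334 and 293 FPKM in monocytes, against 10.7, 6.28 and 4.96 FPKM in microglia (log2FC 6.48, edgeR adjusted p = 0.198). These 3 genes shared the pattern of Runx2 and Irf9, with reads in monocyte library 2 and few or none in monocyte library 1. Bhlhe41, a helix-loop-helix repressor known from alveolar macrophages, had the other pattern, with 6978 and 1217 reads in monocytes, against 1552, 2159 and 1382 in microglia (log2FC 6.90, edgeR adjusted p = 0.246). Atf3, a stress-induced factor, had 0 and 705 reads in monocytes, against 183, 329 and 5 in microglia. Without monocyte library 2 the log2FC was 1.88 for Nr1h3, 0.89 for Id2 and −0.55 for Tal1, and without monocyte library 1 it was 1.37 for Bhlhe41.

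Of 12 genes that PU.1, IRF8, RUNX1 or C/EBP alpha are known to act on, all 12 were tested, 3 were lower in both monocyte libraries, 0 were higher in both, and 0 passed from edgeR (1 at unadjusted p below 0.05, 0 with limma-voom, 3 with DESeq2). Their median log2FC was 1.53, against −1.11 over all genes tested, and 11 of 12 were above 0, against 36.3% of all genes. With library totals 4 of the 12 were above 0, against 14.5% of all genes, and their median was −1.08. Without monocyte library 2, 3 of the 12 were above 0, and 11 were above the median of all genes tested, which was −3.25. Fcgr1, the high-affinity receptor for IgG, had 7919 and 19 reads in monocytes, against 1209, 1385 and 1312 in microglia (log2FC 7.35, edgeR adjusted p = 0.220), and was −4.34 without monocyte library 1. Csf2ra, a chain of the GM-CSF receptor, had 7 and 3608 reads in monocytes, against 1434, 1563 and 250 in microglia. Cd14, a co-receptor for lipopolysaccharide, had 4 and 1665 reads in monocytes, against 1391, 276 and 191 in microglia. The 3 genes that were lower in both monocyte libraries were Csf1r, Cst3 and Msr1.

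Markers of other cells the gates could hold moved with single monocyte libraries. Of 8 astrocyte markers 5 were at 0 in monocyte library 1, Gfap and Aldh1l1 among them, while Nfib, a factor gene on that list, was read 7453 times there and never in the other libraries. In monocyte library 2, Mef2c, Runx1 and Maf had more reads than in library 1. Flt1 of the endothelial list had 3205 reads in monocyte library 2, against 519, 688 and 5 in microglia. Il7r of the T cell list had 2371 there, against 57, 23 and 367 in microglia. Slc1a2 of the astrocyte list had 269, against 2, 30 and 0 in microglia. Map2 of the neuron list had 122 (against 105 of Tubb3 in library 1), and neither was read in microglia. Cdh5, Tie1, Cd3d, Cd3e and Cd3g were at 0 in monocyte library 2. Ighm of the B cell list had 26 and 3447 reads in monocytes, against 3098, 4322 and 2536 in microglia, with Cd79a and Pax5 at 0 in every library. The summed level of each list ranged from 1.46 to 492 CPM (endothelial), 2.34 to 365 CPM (T and NK cells), 8.49 to 530 CPM (B cells), 51.3 to 2183 CPM (astrocytes), 19.0 to 34.5 CPM (neurons) and 1.07 to 2.05 CPM (oligodendrocyte lineage) in monocytes. In microglia it ranged from 1.36 to 82.8 CPM (endothelial), 2.55 to 62.3 CPM (T and NK cells), 432 to 486 CPM (B cells), 26.1 to 97.4 CPM (astrocytes), 0 to 15.7 CPM (neurons) and 9.85 to 153 CPM (oligodendrocyte lineage). Mbp, a myelin gene, had 3 and 3 reads in monocytes, against 595, 385 and 49 in microglia. Of 8 neutrophil markers, Ly6g was at 0 in every library and no library had over 1 read of the list. The part of these cells in the levels of the 9 factors was not tested.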

How the data were processed

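Counts of read pairs per gene were deposited by the authors, who removed adaptors and poor reads, aligned with STAR (2.5.2a in the submitters' notes) to GRCm38 and counted on GENCODE vM12. The authors deposited FPKM as counts over gene length and library total; the counts show that TMM was not applied. Each of the tables held 4 columns of other samples, which were not used, and the authors' fold changes and log2 CPM were not used. Monocytes were compared with microglia by edgeR 4.0.16 (R 4.3.3; quasi-likelihood test, TMM, its expression filter by group, Benjamini-Hochberg over 10105 genes). limma 3.58.1 and DESeq2 1.42.0 were alternatives, and Python 3.11.15 did the rest. The tools were tested on simulated data. The 9 genes and all lists were chosen with earlier results of these data known, and the motifs after the promoters had been seen. Some genes of the lists are not reported here and were left out of the list counts. Genes were named by a rule: the 9 factors, their relatives, up to 5 genes with the smallest p of each list, and the 3 nearest patterns. The rule also asked for markers with a read, of which only some are named. Those markers, markers at 0 and other genes were chosen after their values were seen. Such genes include Fli1, Elf4, Ets2, Elk1, Elk4, Gabpa, Irf4, Irf5, Irf7, Csf1r, Cst3 and Msr1. Promoters (250 bases before to 50 after a start) are from RefSeq, GRCm38.p6, and 6 of the 9 genes matched. Positions are from GENCODE vM21. Intervals are 95% exact binomial (Clopper-Pearson) intervals and, like the limit of 3 reads for a count of 0, cover counting error only. Amplified reads are not separate molecules.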

Additional observations from a re-analysis of the deposited data

How the results depend on the processing

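Of the 9 factors, 0 passed at an adjusted p below 0.05 in each of the 12 alternative fits (7 tools, scalings or filters and 5 left-out libraries), and 0 did in the main one. In simulated data at the estimated dispersion of 1.57, edgeR and limma-voom recovered 0% of changes of 3 or 6 on the log2 scale, so their counts of 0 say little about these genes. With DESeq2 the share found was 5.38% at a log2 fold change of 3 and 50.5% at one of 6, beside 88 false calls. Those shares leave out planted genes to which DESeq2 gave no adjusted p. The simulated libraries shared their gene makeup apart from the planted changes, unlike these libraries, whose TMM factors ran from 0.0911 to 3.75. The genes called over the whole table numbered 6 with edgeR, 32 with limma-voom, 1087 with DESeq2 (987 higher and 100 lower in monocytes), 0 with library totals, 3 with TMM from genes counted at least 10 times in each library, 70 with no filter, 14 with CPM above 1 in at least 2 libraries, and 0 to 343 with each library left out. The count of factors lower in both monocyte libraries was 5 in FPKM, in CPM, and in CPM without mitochondrial genes, 1 in CPM with TMM factors, and 5 to 6 with each library left out.

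Of 108 fold changes of the 9 genes under these alternatives, 92 kept their sign. The others were Sall3 at 0.17 with DESeq2 and 0.17 with RLE factors; with library totals, Mef2a at −0.37, Mef2c at −1.06, Irf8 at −0.77 and Maf at −2.25; with TMM from genes counted at least 10 times, Mef2c at −0.39 and Maf at −1.32; Maf at −0.35 with no filter; and Cebpa at 0.32 with limma-voom. With each library left out, the log2 fold change ranged from −0.87 to 5.11 for Mef2a, −2.56 to 1.56 for Mef2c, −1.21 to 1.03 for Maf, −2.57 to 0.85 for Cebpa, −0.57 to 6.45 for Runx2, −0.26 to 6.75 for Cebpz, −11.90 to 5.25 for Irf9, −0.55 to 7.18 for Tal1 and −4.34 to 7.95 for Fcgr1. For Runx2 and the 4 genes after it these settings were added after their values had been seen. The log2 ratio difference ranged from −1.53 to 0.14 for Sall1 to Spi1, −6.65 to 2.18 for Mef2c to Mef2a, 0.37 to 4.44 for Cebpa to Spi1 and 3.20 to 6.44 for Irf8 to Spi1, and no pseudocount turned a sign. Where a fold change turned, the cause was not tested. No paired analysis was possible because the groups share no replicate number.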
